A study of Mus musculus with 21 samples.

Results

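The comparison concerned N202 mouse mammary tumor cells that had spent 63 days (passage P3) or 84 days (passage P4) on brain tissue, set against the parental cells (P0) from which they were derived. Its members were 6 of the 21 arrays of the series, taken by their labels: 2 brain P3 arrays, 2 brain P4 arrays and 2 parental P0 arrays. The cells are a clone from mammary carcinomas of mice that carry a rat HER-2/neu transgene under the MMTV promoter, which is active in mammary epithelium, and all groups, the parental cells included, carry green fluorescent protein fused to histone H2B. For each passage, spheroids were laid on minced brain of C57BL/6 donors that had been revascularized in a dorsal skinfold chamber on female nude mice, which lack T cells. After 21 days the tumor was returned to culture, selected with G418 and sorted for green fluorescence, and RNA was taken from these cultures, not from tumors in the animal. By the methods each passage was started from the cells of the one before, in a single adaptation lineage, which was not tested here, and the array labelled a technical replicate at each passage was made from a separate culture and RNA preparation. The p-values therefore measure the spread between cultures and not between adaptation experiments. The other arrays used for reference were brain P1 and P2 (early brain, 4 arrays), bone marrow and lung P3 and P4 (4 arrays, 1 per tissue and passage), breast P1 (1 array) and a second brain adaptation at P1 and P2 (1 array each).

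As background, tumor cells that settle in a foreign tissue change their expression at once, and such changes may fade or stay when the cells are put back into culture. Mammary tumors driven by HER-2/neu keep an epithelial program and depend on signaling from the ErbB receptors through the ERK kinases. They exchange ions, amino acids and organic anions with their surroundings through carriers and channels. Secreted chemokines, integrins and guidance receptors set their contacts with other cells. These groups of genes order the results below.

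The values are log2 levels per probe set, 1 unit being a 2-fold difference, and a gene was called where limma's adjusted p was under 0.05 over the probe sets with the highest group means, the dimmest of which reached 7.33. Of 7301 genes, 59 were called (0.808%): 12 were higher (0.164%) and 47 lower (0.644%) in late brain cells than in parental cells, and 1017 genes had an unadjusted p under 0.05. The median difference over all genes was -0.15. With array medians made equal that median was -0.025 and the split 17 higher and 36 lower (32.1% higher, against 20.3% with the values as deposited), and with cyclic loess it was -0.019 and 18 higher and 33 lower (35.3%). In 56 of the 59 genes all 4 late arrays lay on one side of both parental arrays. Over all genes 3.56% lay wholly above and 16.4% wholly below.

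The second arrays of brain P3 and P4 had the highest 5th percentiles of all arrays, 3.04 and 2.80. The next was 2.76, on the second array of brain P1, so by this measure the P3 array stood apart and the P4 array did not. Over all genes the median difference from the parental mean was 0.006 and -0.121 on the first arrays of P3 and P4. On the second arrays of P3 and P4 it was -0.195 and -0.237, and their 95th percentiles, 9.90 and 9.87, were the lowest of all arrays. Without both of them 17 genes were called, 7 higher and 10 lower, 16 of which were among the 59. Parental array 2 carried many calls: without it 18 genes were called, 8 of them lower, and without parental array 1 45 genes were called. In all, 10 of the 59 genes stayed past the threshold whichever of the 6 arrays was left out: *Kcnma1*, *Rbp7*, *U90926* and *Akr1b8* above parental cells, and *Ms4a6d*, *Slco1a5*, *Ecrg4*, *Gstm1*, *Trpm3* and *Epha4* below. Of the epithelial markers, *Krt8* and *Epcam* were bright in all 6 arrays. *Krt8* lay at 12.57 to 13.02 in late brain cells and at 12.46 to 13.00 in parental cells, and *Epcam* at 10.08 to 10.48 in late brain cells and 10.53 to 10.87 in parental cells. *Krt19*, another luminal keratin, stayed at 4.12 to 4.81 in late brain cells and 4.20 to 4.52 in parental cells. The luminal marker *Elf5* read 8.09 and 7.94 at P3, below both parental arrays at 9.23 and 9.92. At P4 *Elf5* read 9.40 and 9.41, inside the parental range. *Krt18* lay at 12.44 to 12.70 late and 12.64 to 12.85 in parental cells, *Cdh1* at 10.64 to 10.80 and 10.92 to 11.01, and *Cd24a* at 10.31 to 10.97 and 10.28 to 10.47. Some basal and mesenchymal markers were bright too. The basal keratin *Krt14* lay at 10.30 to 10.85 in late brain cells and 9.76 to 10.67 in parental cells. The mesenchymal *Vim* lay at 10.99 to 11.59 late and 11.96 to 12.10 in parental cells, and *Fn1* at 9.76 to 11.76 and 10.96 to 11.94. The basal *Krt5* and *Trp63* and the mesenchymal *Zeb1* were under 7.33 on all 6 arrays. Of the 8 lists for other cells, 4 had no gene over 7.33 in the mean of either group, and the other 4 had 1 or 2. Among the brightest of these, *Cd14* read 9.71 to 10.70 in late brain and 10.28 to 10.65 in parental cells. *Sox10* read 9.07 to 9.83 in late brain and 9.79 to 9.80 in parental cells, and *Aldoc* 8.30 to 9.35 in late brain and 8.60 to 10.51 in parental cells. *Gja1* lay wholly above parental cells, at 8.87 to 9.46 in late brain and 8.51 to 8.81 in parental cells. *Map2* and *Cnp* lay wholly below. *Map2* read 7.89 to 8.36 in late brain and 8.73 to 9.0 in parental cells, and *Cnp* 7.31 to 8.49 in late brain and 8.76 to 8.99 in parental cells. The part of such genes in the results was not tested. The defining markers *Ptprc*, *Gfap* and *Snap25* were dim. *Ptprc* of leukocytes lay at 3.52 to 4.55 in late brain and 3.72 to 3.96 in parental cells, *Gfap* of astrocytes at 4.14 to 4.59 in late brain and 4.64 to 4.71 in parental cells, and *Snap25* of neurons at 4.96 to 5.31 in late brain and 4.82 to 4.93 in parental cells.

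The gene furthest above parental cells was *Kcnma1*, which encodes the pore-forming subunit of the large-conductance calcium- and voltage-gated BK potassium channel. Its level was 13.25 and 13.19 at brain P3 and 13.58 and 13.38 at brain P4, against 5.27 and 4.84 in parental cells. All 4 late arrays lay close together and far from the parental arrays, and the difference was 8.29 ± 0.49 (log2, SE), a 314-fold rise (95% interval 145 to 680, limma, adjusted p = 0.00016). *Rbp7*, an intracellular retinol carrier, read 8.46 and 8.49 at P3 and 9.37 and 10.04 at P4, against 5.02 and 4.73 in parental cells, where it was under the limit of 7.33. It rose by 4.21 ± 0.21 (18.5-fold, 13.3 to 25.8, adjusted p = 5.3e-05). The transcript *U90926* read 10.43 and 9.68 at P3 and 9.07 and 8.78 at P4, against 5.51 and 5.25 in parental cells, a rise of 4.11 ± 0.28 (17.2-fold, adjusted p = 0.00046). *Akr1b8*, an aldo-keto reductase that detoxifies reactive aldehydes, lay at 8.29 in both P3 cultures and at 6.48 and 6.47 at P4, against 4.47 and 4.93 in parental cells. It rose by 2.68 ± 0.23 on average (adjusted p = 0.0018). The cultures of each passage were alike for *Akr1b8*, and the passages differed.

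**Figure D1:**
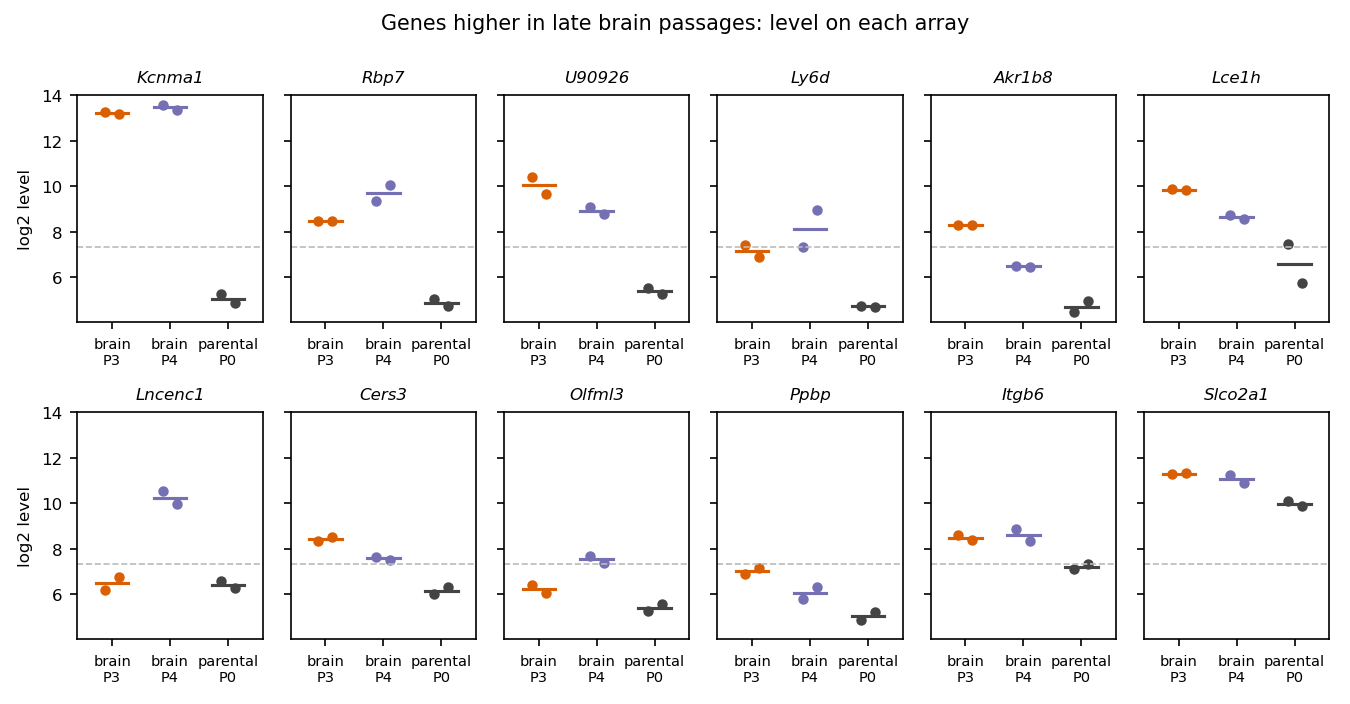
Log2 level of each of the 12 genes called higher in late brain passages, with 1 dot per array and a bar at the mean of the 2 arrays of brain P3 (orange), brain P4 (purple) and parental P0 (grey); the dashed line is the limit of 7.33 for the highest group mean. *Kcnma1* lay at 13.19 to 13.58 in late brain cells and at 4.84 to 5.27 in parental cells, while *Lncenc1* was raised at P4 only.

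Other genes that rose are known from stratified epithelium and skin, and their parental values were low. *Ly6d*, a surface protein anchored by a lipid tail, read 7.40 and 6.87 at P3 and 7.31 and 8.94 at P4, against 4.74 and 4.70 in parental cells, a rise of 2.91 ± 0.39 (adjusted p = 0.013). *Lce1h*, a protein of the cornified envelope of the epidermis, read 9.88 and 9.82 at P3 and 8.73 and 8.55 at P4, against 7.44 and 5.73 in parental cells, which differed from each other by more than the P3 and P4 means did (2.66 ± 0.46, adjusted p = 0.041). *Cers3*, the ceramide synthase for the very long chains of the skin barrier, rose by 1.84 ± 0.31 (adjusted p = 0.036). Without parental array 2 the adjusted p values of these 3 genes were 0.126, 0.256 and 0.205, in that order. The list of genes for skin keratinocytes and muscle, 11 of which are on the array, had none over 7.33 in the mean of either group, and its summed level was 8.36 to 8.54 in late brain cells against 8.17 to 8.47 in parental cells.

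Of secreted and surface proteins, *Olfml3*, an extracellular glycoprotein, rose by 1.49 ± 0.20 (adjusted p = 0.014), and *Ppbp*, the precursor of a platelet chemokine, also by 1.49 ± 0.19 (adjusted p = 0.012). *Itgb6*, the integrin subunit that pairs with alpha v and can release active TGF-beta, read 8.58 and 8.38 at P3 and 8.87 and 8.33 at P4, against 7.08 and 7.30 in parental cells (1.35 ± 0.19, adjusted p = 0.014). *Slco2a1*, the prostaglandin carrier, was the only gene among the 12 whose parental mean was over 7.33. It read 11.28, 11.32, 11.23 and 10.89 in late brain cells against 10.09 and 9.87 in parental cells, a rise of 1.20 ± 0.18 (adjusted p = 0.020). For these 4 genes the highest adjusted p with an array left out was 0.0983, 0.0791, 0.0983 and 0.208, in that order, each without a parental array. The other 11 genes that rose were dim in parental cells, where the size of a fold depends on the background of the array.

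The stretches around the annotated starts of 4 of these genes are shown because *Kcnma1* and *Rbp7* had the highest rises, and because *Akr1b8* and *Gstm1* were the called members of the list of Nrf2 targets and moved in opposite directions. They are RefSeq sequences on GRCm38.p6, 250 bases before to 50 after the start, and 49 of the 59 genes had an entry. Capitals mark matches, on either strand, to TATANA, to the AP-1 type motif TGANTCA or to the antioxidant element core TGACNNNGC, with overlapping matches joined in a run.
Kcnma1: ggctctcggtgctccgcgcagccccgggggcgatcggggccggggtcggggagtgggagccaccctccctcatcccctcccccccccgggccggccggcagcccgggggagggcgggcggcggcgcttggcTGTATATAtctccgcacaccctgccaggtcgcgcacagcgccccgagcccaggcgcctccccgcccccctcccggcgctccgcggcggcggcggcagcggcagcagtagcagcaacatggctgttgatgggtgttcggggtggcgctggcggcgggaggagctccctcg
Rbp7: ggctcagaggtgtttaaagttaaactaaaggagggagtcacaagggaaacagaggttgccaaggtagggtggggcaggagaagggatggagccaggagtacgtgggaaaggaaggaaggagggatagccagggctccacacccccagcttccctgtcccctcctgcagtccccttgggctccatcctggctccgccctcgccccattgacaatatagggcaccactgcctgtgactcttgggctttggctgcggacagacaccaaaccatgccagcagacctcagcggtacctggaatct
Akr1b8: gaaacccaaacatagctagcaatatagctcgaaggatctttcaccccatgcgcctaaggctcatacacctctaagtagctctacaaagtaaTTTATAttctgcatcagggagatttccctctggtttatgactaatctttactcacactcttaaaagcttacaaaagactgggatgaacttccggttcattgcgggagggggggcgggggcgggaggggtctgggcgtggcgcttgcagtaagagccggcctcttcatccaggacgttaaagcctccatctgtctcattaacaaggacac
Gstm1: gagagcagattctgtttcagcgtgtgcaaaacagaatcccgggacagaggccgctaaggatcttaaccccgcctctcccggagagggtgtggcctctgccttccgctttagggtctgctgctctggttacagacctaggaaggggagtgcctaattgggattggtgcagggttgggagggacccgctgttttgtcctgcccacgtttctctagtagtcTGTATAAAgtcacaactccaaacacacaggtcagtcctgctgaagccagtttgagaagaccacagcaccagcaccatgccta
The *Kcnma1* stretch (chr14:24004156-24004455, minus strand) had 36 CG pairs, that of *Rbp7* (chr4:149454919-149455218, minus strand) had 5, that of *Akr1b8* (chr6:34353896-34354195, plus strand) had 10 and that of *Gstm1* (chr3:108017769-108018068, minus strand, the more downstream of 2 listed starts) had 8. The median over 32851 promoters was 7. TATANA matched in *Kcnma1*, *Akr1b8* and *Gstm1* and is found in 24.7% of all promoters. TGANTCA (7.81% of promoters) and TGACNNNGC (12.4%) matched in none of the 4 windows.

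Among the genes that fell, *Ms4a6d*, a membrane-spanning protein known from macrophages, lay lowest relative to parental cells. It read 3.28 and 4.04 at P3 and 3.43 and 4.42 at P4, against 7.48 and 7.86 in parental cells, and fell by 3.88 on the log2 scale (SE 0.37, 14.7-fold, 8.17 to 26.4, adjusted p = 0.0021). Of 18 genes for macrophages and microglia on the array, 1 had a mean over 7.33 in each group, the summed level was 10.31 to 11.10 in late brain cells and 10.70 to 10.97 in parental cells, and *Cd68* read 6.61 to 8.22 in late brain cells against 5.99 to 6.03 in parental cells. *Ecrg4*, the precursor of a secreted peptide, read 5.91 and 6.63 at P3 and 5.99 and 5.20 at P4, against 8.95 and 9.45 in parental cells (-3.27 ± 0.30, 9.62-fold lower, adjusted p = 0.0019). *Cnmd*, the cartilage glycoprotein chondromodulin that hinders vessel growth, read 5.26, 5.31, 5.67 and 5.44 in late brain cells against 8.12 and 8.97 in parental cells (-3.13 ± 0.35, adjusted p = 0.0058). *Cnmd* was tightly grouped in late brain cells, and its adjusted p was 0.0745 without parental array 2.

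**Figure D2:**
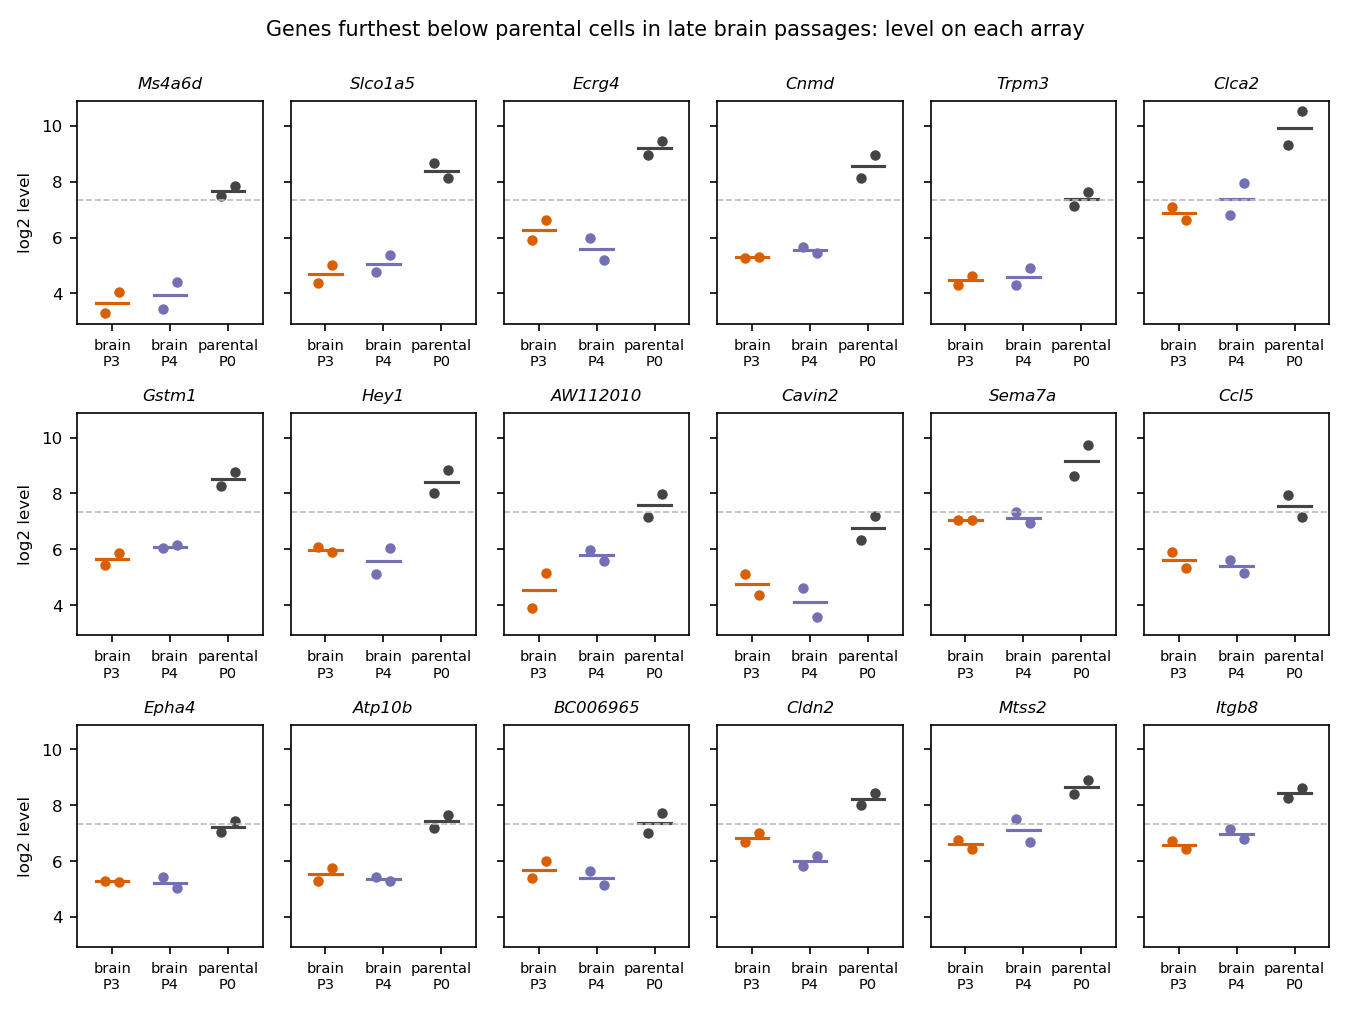
Log2 level of the 18 genes furthest below parental cells in late brain passages, with 1 dot per array and a bar at the mean of the 2 arrays of brain P3 (orange), brain P4 (purple) and parental P0 (grey); the dashed line is the limit of 7.33. Every late array lay below both parental arrays for each of these genes, from *Ms4a6d* (-3.88) to *Itgb8* (-1.65).

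Of a list of 69 carriers, channels and pumps 44 were tested, of which 2 rose and 6 fell, where 0.164% of all genes rose and 0.644% fell. The list's median was -0.05, against -0.15 over all genes. The lists were chosen with earlier results of these data known, so the count is not independent evidence about carriers. Outside the list, *Atp10b*, a lipid flippase (-1.98), *Slc5a9*, of the sodium and glucose carrier family (-1.50), *Fxyd3*, a regulator of the sodium pump (-1.22), and the solute carrier *Slc35f1* (-1.21) were also among the 47 genes that fell. *Slco1a5*, an organic anion carrier, read 4.36 and 5.01 at P3 and 4.75 and 5.36 at P4, against 8.66 and 8.14 in parental cells, and fell by 3.53 on the log2 scale (SE 0.29, 11.5-fold, adjusted p = 0.0014). *Trpm3*, a calcium-permeable cation channel, read 4.31, 4.64, 4.31 and 4.89 in late brain cells against 7.14 and 7.63 in parental cells (-2.85 ± 0.25, 7.21-fold lower, adjusted p = 0.0018). *Clca2*, a regulator of chloride currents, was at 7.10, 6.64, 6.80 and 7.97 in late brain cells against 9.30 and 10.52 in parental cells (-2.79 ± 0.39, adjusted p = 0.017). *Atp1b1*, the beta subunit of the sodium pump, fell by 1.27 on the log2 scale (SE 0.20, adjusted p = 0.026). So the prostaglandin carrier and the BK channel stood above parental cells while another organic anion carrier and the smaller calcium-activated potassium channel *Kcnn4* (-1.01 ± 0.16, adjusted p = 0.028) stood below. *Slc38a1*, a glutamine carrier, is described with the passages below.

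The genes of ErbB and ERK signaling that were called all fell, as did 47 of the 59 genes called in all. *Erbb2*, the receptor that names the tumor model, read 9.50 and 9.42 at P3 and 10.15 and 9.60 at P4, against 10.69 and 10.71 in parental cells (-1.03 ± 0.18, 2.04-fold lower, adjusted p = 0.040). Whether its probes also read the rat transgene was not tested. *Erbb2* was the called member of 11 tested genes of the ErbB family and its ligands. *Erbb3* was at -0.66 (adjusted p = 0.29) and *Egfr* at 0.47 (adjusted p = 0.42). Of 30 tested ERK feedback and immediate early genes, 2 fell and 0 rose (0.644% and 0.164% over all genes), with a list median of 0.02. At an unadjusted p under 0.05, 6 were lower and 3 higher, where 11.4% of all genes were lower and 2.52% higher. *Dusp6*, the phosphatase of active ERK, fell by 1.41 on the log2 scale (SE 0.21, adjusted p = 0.019), and *Etv5*, an ETS factor induced by ERK, by 1.00 (SE 0.17, adjusted p = 0.041). *Dusp6* read 9.81 and 9.84 at P3 and 9.22 and 8.85 at P4, against 10.61 and 11.07 in parental cells. With the 6 arrays each left out in turn, *Erbb2* lost its call in 5 of 6 fits, *Etv5* in 6 and *Dusp6* in 3.

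Genes of developmental signaling that were called lay below parental cells, as did 47 of the 59 genes called in all. Of 23 tested genes of Notch, Wnt and Hedgehog signaling 3 fell and 0 rose, where 0.644% of all genes fell and 0.164% rose. The list's median was -0.33, against -0.15 over all genes. This list too was chosen with earlier results of these data known. *Hey1*, a repressor induced by Notch, read 6.07, 5.90, 5.13 and 6.05 in late brain cells against 8.03 and 8.82 in parental cells (-2.64 ± 0.39, 6.23-fold lower, adjusted p = 0.019). *Fzd7*, a Wnt receptor, fell by 0.83 on the log2 scale (SE 0.15, adjusted p = 0.047), as did *Gli3*, a transcription factor of Hedgehog signaling (-1.36 ± 0.21, adjusted p = 0.021). Of 25 tested genes of TGF-beta, activin and BMP signaling, *Ecrg4* and *Inhbb*, the beta B subunit of activin and inhibin, fell (*Inhbb* -1.03 ± 0.18, adjusted p = 0.043) and 0 rose. *Inhbb* was lost in each of the 6 fits that left out an array, as was *Fzd7*.

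Genes of adhesion, guidance and the cell surface that were called changed in both directions. *Itgb8*, which like *Itgb6* pairs with alpha v, read 6.73, 6.44, 7.15 and 6.80 in late brain cells against 8.25 and 8.60 in parental cells (-1.65 ± 0.24, adjusted p = 0.019). So of 21 tested integrins, cadherins and adhesion molecules *Itgb6* rose, *Itgb8* and *Cadm1* fell, and the median was -0.07. Over all genes 0.164% rose and 0.644% fell. *Epha4*, a receptor for ephrins, read 5.28, 5.26, 5.43 and 5.02 in late brain cells against 7.02 and 7.45 in parental cells (-1.99 ± 0.18, 3.97-fold lower, adjusted p = 0.0018). *Sema7a*, a membrane-bound semaphorin, read 7.04, 7.04, 7.32 and 6.93 in late brain cells against 8.64 and 9.72 in parental cells (-2.10 ± 0.28, adjusted p = 0.013). *Cldn2*, a claudin that forms a cation pore in tight junctions, fell by 1.81 (SE 0.29, adjusted p = 0.026) and was the called member of 19 tested junction genes. *Cavin2*, a coat protein of caveolae, fell by 2.33 (SE 0.35, adjusted p = 0.020).

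Of the chemokines and cytokines 1 of 23 tested genes fell and 0 rose, where 0.644% of all genes fell and 0.164% rose. It was *Ccl5*, which attracts T cells and monocytes, at 5.91, 5.34, 5.63 and 5.16 in late brain cells against 7.95 and 7.14 in parental cells (-2.04 ± 0.28, adjusted p = 0.014). *AW112010* read 3.90 and 5.14 at P3 and 5.96 and 5.59 at P4, against 7.17 and 7.98 in parental cells (-2.42 ± 0.39, adjusted p = 0.028), and lost its call in 4 of the 6 fits that left out an array. Of 15 tested genes of antigen presentation and 11 tested interferon-induced genes none was called in limma's fit, with medians of -0.34 and -0.67. At an unadjusted p under 0.05, 3 genes of antigen presentation were lower and 0 higher, and 8 interferon-induced genes were lower and 2 higher, where 11.4% of all genes were lower and 2.52% higher at that p. Of 36 tested Nrf2 targets and detoxification genes 1 rose (*Akr1b8*) and 1 fell, with a median of -0.06. The gene that fell was *Gstm1*, a glutathione S-transferase, which read 5.43 and 5.85 at P3 and 6.05 and 6.14 at P4, against 8.27 and 8.75 in parental cells (-2.64 ± 0.24, 6.24-fold lower, adjusted p = 0.0018).

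Many lists held no called gene, which at 0.808% of all genes called says little about a list. None of 73 tested genes of mitosis and DNA replication was called in limma's fit. Their median was -0.22 against -0.15 over all genes, and 23 of them lay wholly below both parental arrays (16.4% over all genes). At an unadjusted p under 0.05, 15 were lower and 0 higher, where 11.4% of all genes were lower and 2.52% higher. *Mki67*, the antigen of proliferating cells, was at -0.29 (adjusted p = 0.48) and *Top2a*, a topoisomerase, at -0.27 (adjusted p = 0.57). No gene was called among 19 of cholesterol synthesis, 26 of glycolysis and the hypoxia response, 36 of endoplasmic reticulum stress, 20 of collagens and matrix or 16 of the epithelial to mesenchymal transition. At an unadjusted p under 0.05 these lists held 2, 5, 4, 2 and 4 genes, in that order, where 13.9% of all genes passed. Their medians ran between -0.16 and -0.07. Of 22 tested p53 targets and cell cycle inhibitors 0 were called in limma's fit, with a median of 0.23. At an unadjusted p under 0.05, 5 were higher and 0 lower, where 2.52% of all genes were higher. Of 14 tested genes of luminal identity *Ly6d* was the called one, and 4 lay wholly below both parental arrays (16.4% over all genes). At an unadjusted p under 0.05 there were 5 lower and 1 higher, against 11.4% and 2.52% of all genes. *Alpl*, *Plat* and *Pnp*, an alkaline phosphatase, the tissue plasminogen activator and a purine phosphorylase, lay above both parental arrays on all 4 late arrays but were not called (1.22, 0.82 and 0.77, adjusted p = 0.36, 0.14 and 0.18).

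The passages P3 and P4 differed for some of the genes. In the same fit 46 genes (0.63%) were called between brain P4 and brain P3 (71 with a replicate block), 9 of which were among the 59. *Slc38a1* read 3.98 and 3.97 at P4 and 7.28 and 6.90 at P3, against 6.87 and 6.95 in parental cells, so the fall on average was that of P4 (P4 minus P3, -3.12, adjusted p = 0.00058). *Lncenc1*, a long non-coding RNA known from embryonic stem cells, read 10.52 and 9.97 at P4 and 6.19 and 6.75 at P3, against 6.59 and 6.25 in parental cells (3.77, adjusted p = 0.0010). *Hsd11b1*, the enzyme that restores active glucocorticoids, was also higher at P4 than at P3 (2.42, limma, adjusted p = 0.032). It read 8.92 and 9.48 at P4 and 6.97 and 6.58 at P3, against 9.39 and 9.77 in parental cells, so its fall was mainly that of P3. These 3 were the genes of the 59 whose late and parental arrays overlapped.

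**Figure D3:**
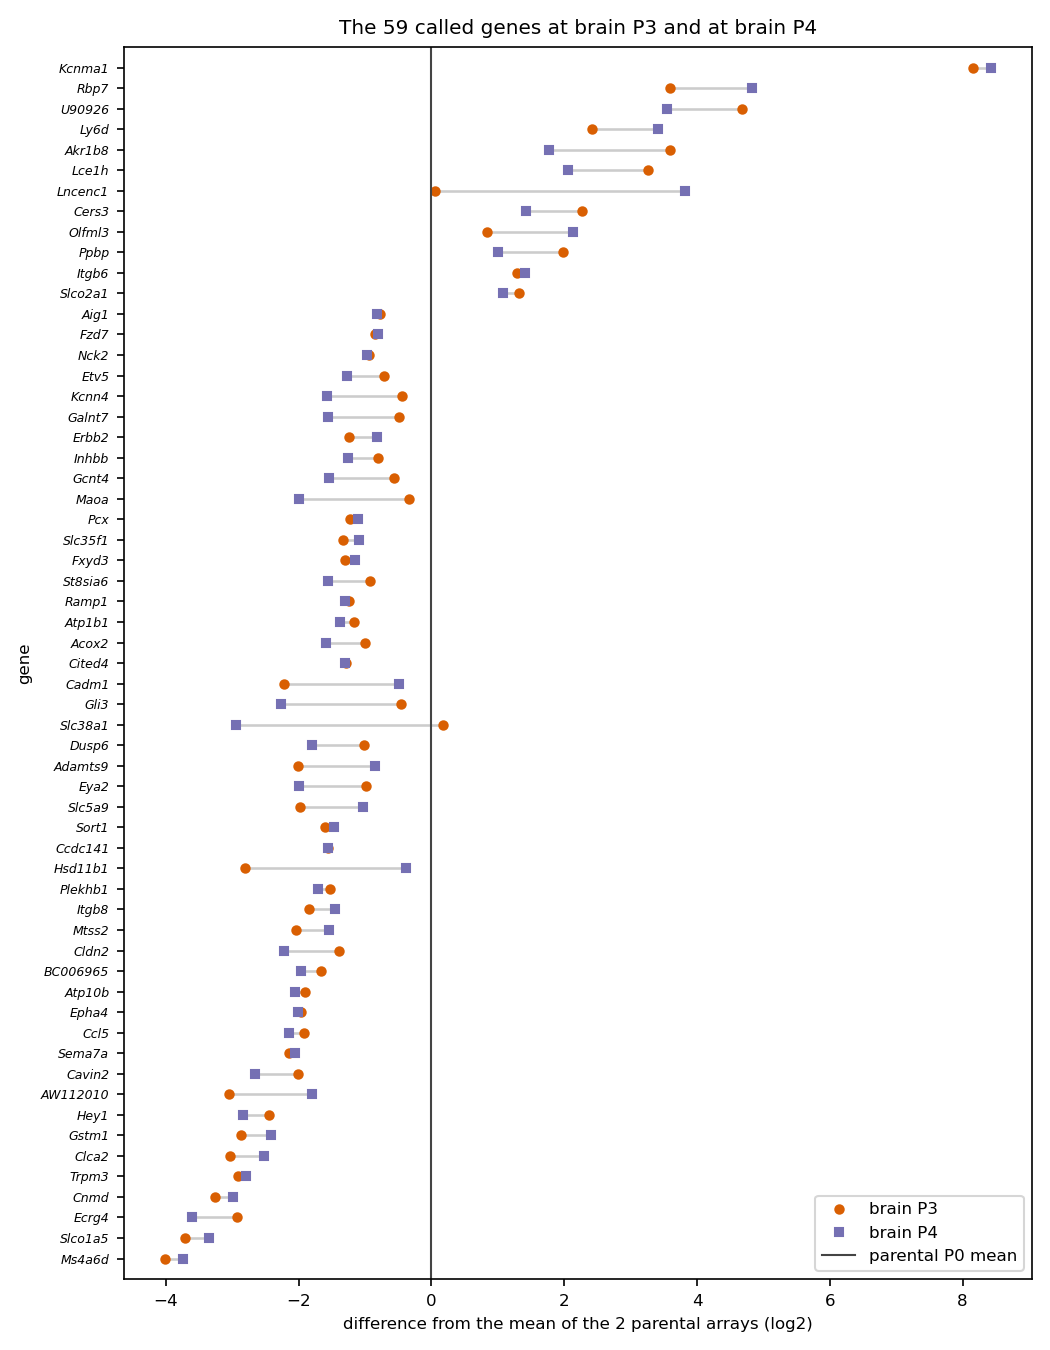
Difference from the mean of the 2 parental arrays (log2) for the 59 called genes, at brain P3 (orange circles, mean of 2 arrays) and at brain P4 (purple squares, mean of 2 arrays), with the parental mean at 0. *Kcnma1* lay near 8 at both passages, while the marks of *Slc38a1*, *Lncenc1* and *Hsd11b1* lay far apart.

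For the remaining 6 the passages differed in size and not in side. *Cadm1*, a cell adhesion molecule of the immunoglobulin type, read 8.25 and 7.80 at P4 and 6.58 and 6.0 at P3, against 8.55 and 8.48 in parental cells (P4 minus P3, 1.73, adjusted p = 0.032). *Adamts9*, a metalloprotease that cuts proteoglycans, was also nearer to parental cells at P4 (1.15, adjusted p = 0.043), as was *Akr1b8* (-1.82, adjusted p = 0.036). *Gli3* (-1.80, adjusted p = 0.032), *Maoa*, which breaks down monoamines (-1.66, adjusted p = 0.032), and *Kcnn4* (-1.13, adjusted p = 0.045) were further from parental cells at P4. When the second culture of either passage was left out, *Slc38a1* and *Lncenc1* were the 2 genes called between the passages. With a single passage set against parental cells, 48 genes were called at P3 and 74 at P4. Of the 59, 34 were called at P3 alone and 43 at P4 alone, in comparisons that share the late and the parental arrays with the main one.

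Set beside the early arrays, the late levels differed from them in several ways. The passages are taken from the labels, and whether the P3 cultures grew from those measured at P2 was not tested. The median of the genes of chromosome 4, relative to all genes, was 0.08 and 0.09 on the P3 arrays and -0.54 and -0.52 on the P2 arrays, that of chromosome 14 was 0.25 and 0.26 at P3 and -0.30 and -0.26 at P2, that of chromosome 3 was 0.02 and 0.03 at P3 and -0.31 and -0.29 at P2, and that of chromosome 19 was -0.04 on both P3 arrays and -0.28 and -0.23 at P2. On the late marrow and lung arrays chromosome 4 was at 0.05 to 0.11, chromosome 14 at 0.08 (lung P4) to 0.33, and chromosome 3 at 0.01 to 0.20 (lung P3). Chromosome 19 was at -0.255 on the lung P3 array and at -0.04 to -0.01 on the others. Late and early brain cells differed in 2011 genes (27.5%), 797 higher (10.9%) and 1214 lower (16.6%) late. Of the 12 genes that stood above parental cells 11 were also called higher than in early brain cells, and of the 47 below 34 were called lower and 5 higher than in early brain cells. The 2 comparisons share the 4 late arrays, so these counts are not independent. *Kcnma1* read 10.31 and 11.55 at P1 and 7.01 and 5.12 at P2. The P2 cultures thus differed, with the second inside the parental range of 4.84 to 5.27 and the first above it. *Rbp7* was at 4.50 to 5.12 on the 4 early arrays, near the parental level. *Slco1a5* was at 7.09 and 7.83 at P1, below the parental range of 8.14 to 8.66, and at 8.26 and 8.27 at P2, inside it. *Epha4* was at 7.25 to 7.78 on the early arrays, near parental cells.

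**Figure D4:**
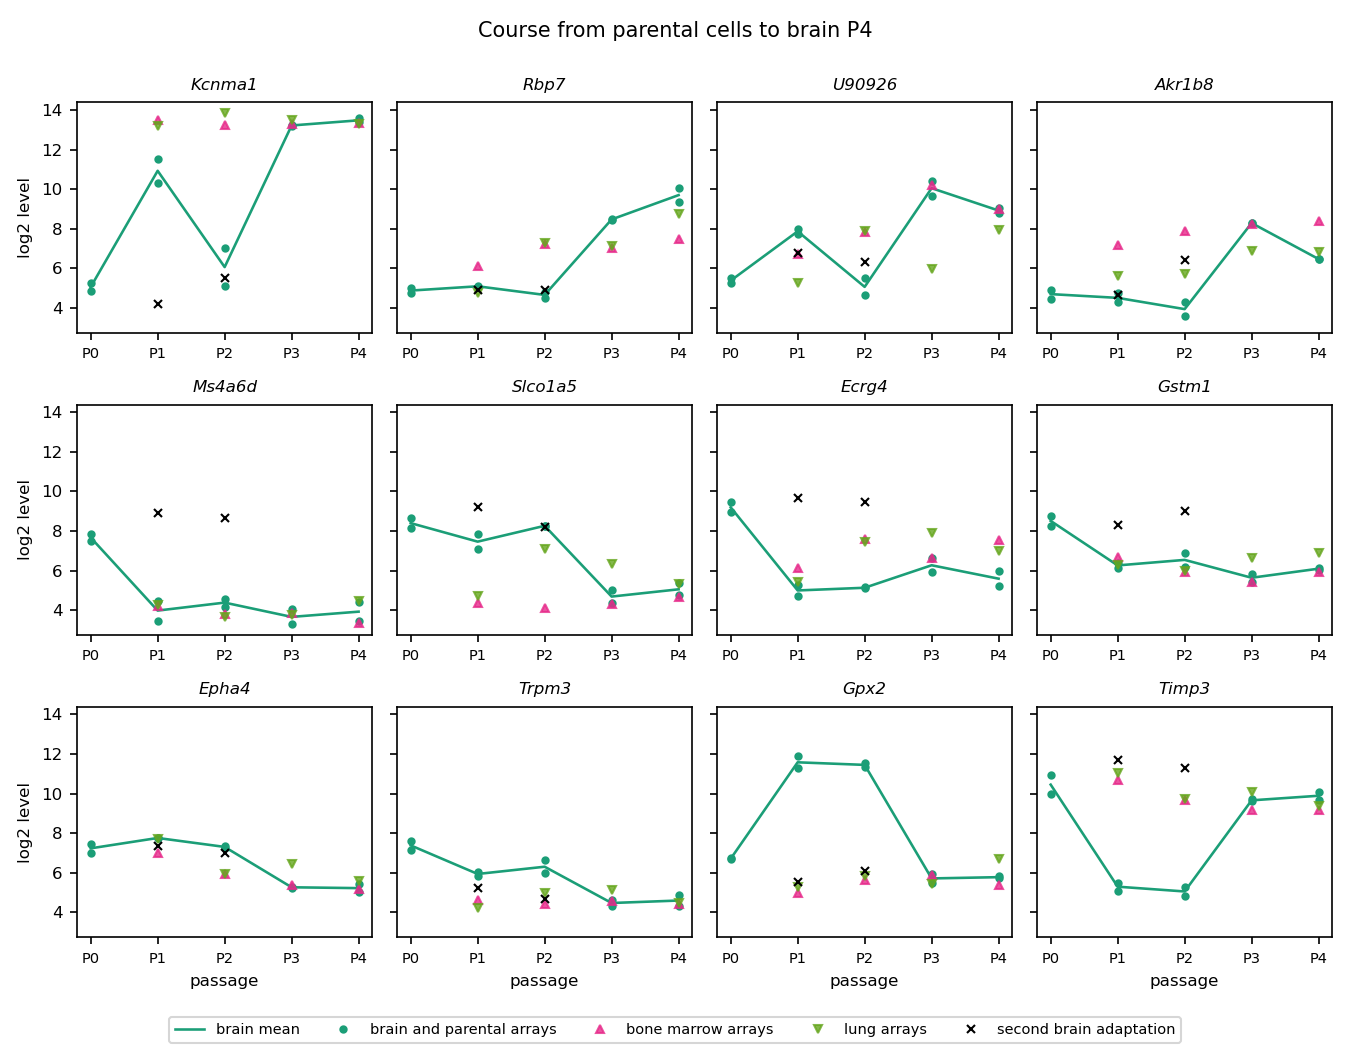
Log2 level of 12 genes by passage, with green dots for the 2 arrays of parental cells and of each brain passage, a green line through their means, pink and light green triangles for the single bone marrow and lung arrays, and crosses for the second brain adaptation. *Rbp7* and *Slco1a5* lay further from the parental level at P3 and P4 than at P1 and P2. *Ms4a6d* lay away from it at P1 to P4, and *Gpx2* and *Timp3* lay further from it at P1 and P2 than at P3 and P4.

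Other genes were low on both the late and the early arrays. *Ms4a6d* was at 3.28 to 4.42 on the 4 late arrays and at 3.47 to 4.59 on the early ones (late minus early, -0.39, adjusted p = 0.39). *Gstm1* was at 6.16 to 6.89 early (-0.53, adjusted p = 0.077) and *Ccl5* at 5.20 to 5.68 early (0.02, adjusted p = 0.96). *Ecrg4*, *Cldn2*, *Ramp1*, *AW112010* and *Gcnt4* were the 5 genes lower than parental cells whose late level was called above the early one. *Cldn2* lay at 5.83 to 6.99 on the late arrays and at 3.17 to 4.29 on the early ones (2.64, adjusted p = 0.00016). *Atp1b1* was below parental cells late and above them early, with 8.11 to 8.49 on the late arrays and 11.33 to 11.61 on the early ones, against 9.24 and 9.91 in parental cells.

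Several genes with large early changes, known from earlier results of these arrays, lay nearer to parental cells on the late arrays. *Gpx2*, a glutathione peroxidase, was at 5.51 to 5.93 on the late arrays and at 11.28 to 11.88 on the early ones, against 6.74 and 6.68 in parental cells (late minus parental, -0.96, 95% interval -1.43 to -0.50, adjusted p = 0.094). *Timp3*, an inhibitor of metalloproteinases, was at 9.61 to 10.09 late, against 10.93 and 9.98 in parental cells (interval -1.31 to -0.05, adjusted p = 0.37), after 4.83 to 5.50 on the early arrays. *Tmem47*, *Kit* and *Lgals1*, a junction protein, a receptor tyrosine kinase and galectin-1, differed from parental cells by 0.29 (interval -0.23 to 0.81), -0.20 (-0.66 to 0.27) and 0.34 (-0.28 to 0.96), after differences between late and early cells of -5.24, -4.75 and 4.21. These intervals bound the late difference and do not show that it is 0. Of 27 tested neurobiological genes that the study chose on these arrays as raised early, 19 were called lower late than early, where 16.6% of all genes were. *Epha4* and *Maoa* of that list fell below parental cells and 0 rose, where 0.644% of all genes fell and 0.164% rose. The list is not independent evidence of its direction.

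Few differences from cells kept on other tissues for as long passed the test. Between the 4 late brain arrays and the 4 late bone marrow and lung arrays 3 genes were called (0.0411%), all among the 59, and 821 genes had an unadjusted p under 0.05, against 1017 in the comparison with parental cells. *Rbp7* read 8.46 to 10.04 in late brain cells against 7.04 to 8.74 in late marrow and lung cells (1.49, 95% interval 1.10 to 1.87, adjusted p = 0.043). *Lncenc1* was higher by 2.47 (adjusted p = 0.0040), and *Slc38a1* was lower by 1.28 (adjusted p = 0.030) by its P4 level. For *Lncenc1* the difference was 4.09 against marrow alone and 0.84 against lung alone. It read 4.05 and 4.48 on the late marrow arrays and 6.77 and 8.25 on the late lung arrays. Its brain P3 arrays, at 6.19 and 6.75, lay above late marrow too. Without the second culture of P3 or of P4, *Lncenc1* was the gene called, and *Rbp7* was not called without the first culture of P3 either. *Rbp7* also lost this call with a replicate block, with chromosome medians subtracted and with a variance trend and robust estimation, while *Lncenc1* kept it in each. The variance trend with robust estimation lost *Slc38a1* too and called *Atp1b1* and *Ccdc141*. Other genes of the 59 lay over 2-fold apart without passing, such as *Lce1h* (2.44, interval 1.59 to 3.30, adjusted p = 0.091), *Ecrg4* (-1.34, -1.90 to -0.79, adjusted p = 0.16) and *Clca2* (-1.21, -1.93 to -0.49, adjusted p = 0.33). *Kcnma1* read 13.29 to 13.51 in late marrow and lung cells (late brain minus these, -0.01, interval -0.92 to 0.90) and *Ms4a6d* 3.35 to 4.46. The marrow and lung groups have 1 array each, for which the fit takes the spread of the paired groups, and the comparison with lung alone called 0 genes in limma's fit, with 973 at an unadjusted p under 0.05.

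A single passage on breast tissue and the second brain adaptation give further values side by side, with no test. On the breast P1 array *Kcnma1* read 13.64, *Ms4a6d* 3.20, *Slco1a5* 4.70 and *Trpm3* 4.43, each inside the range of the late brain arrays or just outside it. Other called genes lay outside the late range on that array and nearer to parental cells, among them *Rbp7* (5.57), *Ly6d* (5.72) and *Gli3* (7.38). On the second brain adaptation arrays *Ms4a6d* read 8.93 and 8.65, *Ecrg4* 9.64 and 9.48, *Slco1a5* 9.23 and 8.20 and *Gstm1* 8.30 and 9.0, all near or above the parental values and outside the late range. *Kcnma1* read 4.21 and 5.53 there, and *Rbp7* 4.88 and 4.90. Other called genes lay near the late levels there, among them *Trpm3* (5.22 and 4.69), *Hey1* (5.28 and 5.59), *Itgb6* (8.06 and 8.89) and *Slco2a1* (11.70 and 10.93). That adaptation ended at P2, so it has no array of the same time on tissue as P3 and P4.

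The genes called lay on most chromosomes, and some chromosomes shifted as a whole. On chromosome 1, 9 of 412 genes were called lower (2.18%, against 0.644% over all genes), among them *Ecrg4*, *Cavin2* and *Epha4*, and 0 higher. The median of that chromosome's genes, relative to all genes, was -0.10 and -0.09 at P3 and -0.14 and -0.11 at P4, against -0.01 and 0.01 in parental cells. Chromosome 14 was at 0.25 and 0.26 at P3 but at 0.01 and 0.05 at P4, against 0.00 in both parental arrays, and chromosome 13 was at 0.04 and 0.06 at P3 and at -0.17 and -0.12 at P4. Chromosome 15 lay at 0.12 to 0.22 on all 4 late arrays, and chromosome 4 at 0.07 to 0.09, after -0.57 to -0.52 on the early arrays. With the chromosome medians subtracted on each array 48 genes were called, 44 of them among the 59. The part of gene copy number in these shifts was not tested.

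**Figure D5:**
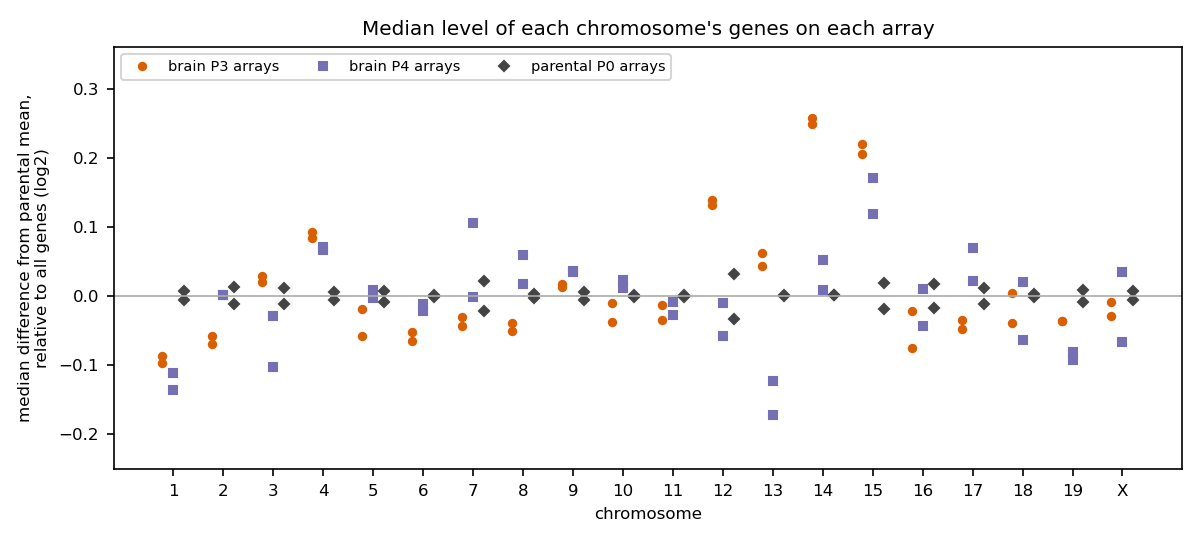
Median difference from the parental mean over the tested genes of each chromosome, relative to the median over all genes (log2), for each brain P3 array (orange), brain P4 array (purple) and parental array (grey). Chromosome 15 lay above 0 on all 4 late arrays (0.12 to 0.22), chromosome 1 below 0, and chromosome 14 lay apart at P3 only.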

How the data were processed

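RNA of cultured N202 cells was hybridized to Affymetrix Mouse Gene 1.0 ST arrays. The authors made the deposited log2 values with RMA in the Expression Console (background correction, quantile normalization between arrays, median polish), which draws all arrays to a like distribution, so that a shift of all genes cannot be read. Of 34760 probe sets, 21640 carried 1 gene symbol in the platform annotation. As many probe sets as the methods state were kept, those with the largest group mean (at least 7.33), since the negative controls behind the original filter were not used here. Each of 7301 genes was represented by its brightest kept probe set.

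A linear model with a mean for each of 16 groups was fitted to all 21 arrays in limma 3.58.1 (R 4.3.3), with 5 residual and 3.9 prior degrees of freedom, and p-values were adjusted by Benjamini-Hochberg over the kept probe sets. Late brain was the mean of P3 and P4. The fit was tested on simulated data. Genes were named as the 12 highest and 12 lowest called with separated arrays, up to 4 called members of each list, *Erbb2*, and genes known for early or lasting changes. *Kcnn4*, *Atp1b1*, *Atp10b*, *Slc5a9*, *Fxyd3*, *Slc35f1*, *Ramp1*, *Gcnt4*, *Ccdc141* and the list members given without a call were chosen after their values were seen. Members, lists and tests were chosen with earlier results of these data known. Alternatives were other filters, scalings, variance models, thresholds and probe set rules, a replicate block, single passages or tissues and leaving out arrays. 2 were added after seeing the data: leaving out the second late brain arrays, and subtracting chromosome medians. Figures used Python 3.11.15 with matplotlib 3.10.9. The number of arrays limits the precision.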

Additional observations from a re-analysis of the deposited data

Results flagged for a closer look

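Of 71 genes looked at, 9 differed between the 2 late passages by limma's test of P4 against P3 (adjusted p under 0.05). *Lncenc1* (3.77), *Hsd11b1* (2.42), *Cadm1* (1.73) and *Adamts9* (1.15) were higher at P4 than at P3. *Slc38a1* (-3.12), *Akr1b8* (-1.82), *Gli3* (-1.80), *Maoa* (-1.66) and *Kcnn4* (-1.13) were lower at P4.

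Late brain cells differed from late bone marrow and lung cells for *Lncenc1* (2.47), *Rbp7* (1.49) and *Slc38a1* (-1.28), by the same fit. The level of *Kit* on the second brain P3 array, 5.26, stood apart from the other 3 late arrays, which lay at 4.65 to 4.70. Chance alone sets apart about 1 in 20 groups of 4 in this way.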

How the results depend on the processing

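Of the 59 genes called, 58 kept their direction under all alternatives in which they were tested. In the same sense 9 were called under each: *Kcnma1*, *Rbp7*, *U90926*, *Ms4a6d*, *Slco1a5*, *Ecrg4*, *Gstm1*, *Trpm3* and *Epha4*. The stricter filter tested 43 of the 59 genes, and *Trpm3* and *Epha4* were not among them. *Slc38a1* turned to 0.18 with P3 alone. The 12 named genes not called were called under no alternative. Without a filter 10 genes were called in late brain against parental cells (4 higher, 6 lower), 2 between P4 and P3, 832 between late and early brain and 0 (by limma, 957 at an unadjusted p under 0.05) against marrow and lung. The 6 arrays alone gave 19 (3 higher, 16 lower). Without the second late brain arrays the counts were 17 (7 higher, 10 lower), 2, 1191 and 1, in the same order of comparisons. Cyclic loess gave 91 genes between P4 and P3 and 5 against marrow and lung, the stricter filter gave 6 against marrow and lung, marrow alone gave 1 and lung alone 0 (by limma, 973 at an unadjusted p under 0.05), and a 2-fold limit left 549 between late and early brain. Leaving out each array gave 18 to 55 genes against parental cells (9 to 14 higher, 8 to 43 lower), 2 to 26 between P4 and P3, 1227 to 1907 between late and early brain, and 1 to 6 against marrow and lung. Where an array was left out, the array left was assumed to vary as the paired ones do. The cause of these differences was not tested.

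With a replicate block of first and second arrays 20 genes were called higher than in parental cells, 82 in all, 71 between P4 and P3 and 5 against marrow and lung, and all 59 genes stayed called. Against marrow and lung the block lost *Rbp7* and gained 3 genes, *Cadm1* and *U90926* among them, and the variance trend with robust estimation lost *Rbp7* and *Slc38a1*. The deviations of same-numbered arrays correlated at 0.12 to 0.41 between brain passages, and at 0.04 (P3) to 0.26 (P4) between parental cells and a brain passage. The labels tie no number to a shared batch or day, so whether the numbers pair the arrays is not known. Dim levels limit the folds: 11 of the 12 genes that rose were under 7.33 in parental cells, and 32 of the 47 that fell were under it in late brain cells.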
